A study of Mus musculus with 6 samples.

Results

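Bile acids are made from cholesterol in the liver, secreted into the gut lumen and recovered for the most part in the distal small intestine. There the sodium-dependent carrier encoded by Slc10a2 takes them up at the brush border, the cytosolic binding protein encoded by Fabp6 carries them through the cell, and the heteromeric exporter encoded by Slc51a and Slc51b releases them on the basolateral side. Inside the enterocyte bile acids bind the nuclear receptor FXR, encoded by Nr1h4, which raises Fabp6, the exporter genes, the corepressor gene Nr0b2 (SHP) and Fgf15, a hormone that returns to the liver and lowers bile acid synthesis. Cyp27a1 encodes the mitochondrial sterol 27-hydroxylase, which starts the acidic route of bile acid synthesis and is expressed in many tissues, macrophages included.

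These 8 genes, Fabp6, Slc10a2, Slc51a, Slc51b, Fgf15, Nr0b2, Nr1h4 and Cyp27a1, were followed among 18193 genes measured in mouse jejunum. They were chosen by name, and each was read from the probe set with exactly 1 gene symbol that had the highest mean over the 6 arrays. All 8 were on the array. Cyp27a1 had 2 probe sets and each other gene had 1.

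The tissue was distal jejunum of 3 control mice and 3 mutant littermates, killed at 7 months of age under ketamine (300 mg/kg) and xylazine (40 mg/kg), with 1 Affymetrix array per animal. The labels give all 6 animals the strain B6.129X1(FVB)-Hnf4atm1.1Gonz/J, and the mutants had lost Hnf4a in the intestinal epithelium through Cre driven by a 12.4 kb Villin promoter. The sources used here do not say whether the controls carried the Cre transgene. RNA came from biopsies of total jejunum, so epithelium, muscle, stroma and immune cells were measured together, and in such bulk samples fewer cells of a type and less RNA per cell cannot be told apart.

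Values are log2 signals as deposited. Array medians lay between 3.93 and 3.98, and 14 genes made in eye, testis, tooth or mammary gland, which jejunum should not express, read between 2.21 and 5.17 with a median of 2.83. Values in that range were therefore taken as close to background. Its upper end came from Prm1 alone (5.09 to 5.17), and the highest value without Prm1 was 4.24, of Lalba. Hnf4a, the targeted gene, read 11.82, 11.76 and 11.57 in controls 1, 2 and 3 and 8.83, 8.83 and 9.82 in mutants 1, 2 and 3, a difference of -2.56 ± 0.25 SE (limma, adjusted p = 0.00756); the call was lost without control 2 (-2.53, adjusted p = 0.0506), without control 3 and mutant 2 together (-2.47, adjusted p = 0.205) and with no moderation of the variance (adjusted p = 0.274). All 8 epithelial markers on a fixed list, among them Vil1, Epcam and Fabp2, lay above the array median on every array, and none of them passed the test (1 by limma's p before adjustment). Some arrays stood apart. Control 3 carried pancreatic acinar transcripts (list mean 7.96, against at most 4.54 on the other arrays), mutant 2 carried fat transcripts (list mean 8.05, against at most 6.49), and control 1 and mutant 3 carried Y-linked transcripts (list means 5.54 and 5.62, against at most 2.70).

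The regions just upstream of the 3 genes whose mutant values all lay above all control values, Fabp6, Slc10a2 and Slc51b, are shown because FXR and the gut factors HNF4, CDX and GATA are known to bind close to genes of this kind. Each is the 250 bases before the annotated start, from RefSeq (GRCm38.p6), 5′ to 3′ on the gene's strand, and capitals mark matches to the motifs searched.
Fabp6, chr11:43601563-43601812, minus strand: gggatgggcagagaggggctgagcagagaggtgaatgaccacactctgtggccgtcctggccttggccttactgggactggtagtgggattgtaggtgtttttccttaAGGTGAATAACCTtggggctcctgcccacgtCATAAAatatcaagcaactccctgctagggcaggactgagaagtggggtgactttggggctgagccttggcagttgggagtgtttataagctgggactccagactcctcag
Slc10a2, chr8:5105288-5105537, minus strand: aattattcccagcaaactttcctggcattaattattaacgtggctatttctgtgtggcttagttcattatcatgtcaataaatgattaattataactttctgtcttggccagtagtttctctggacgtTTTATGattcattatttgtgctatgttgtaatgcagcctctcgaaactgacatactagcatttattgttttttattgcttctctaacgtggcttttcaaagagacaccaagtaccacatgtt
Slc51b, chr9:65422774-65423023, minus strand: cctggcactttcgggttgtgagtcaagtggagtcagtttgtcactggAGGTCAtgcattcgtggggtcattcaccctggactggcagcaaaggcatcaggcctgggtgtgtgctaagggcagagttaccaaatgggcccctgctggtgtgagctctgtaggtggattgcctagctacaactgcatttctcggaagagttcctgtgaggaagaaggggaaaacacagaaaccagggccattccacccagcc

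In the Fabp6 sequence, the bases AGGTGAATAACCT, from 142 to 130 bases before the start, form an imperfect inverted repeat with 1 base between its arms. An inverted repeat with that spacing is the textbook type of FXR site. They match the relaxed pattern AGGTNA, any base, TNACCT, which was picked after the sequence was seen and occurred in 6 of 32851 promoters of this length (0.0183%). The strict FXR repeat of GGTCA and TGACC with 1 base between them was in none of the 7 member promoters in the table and in 0.0335% of all promoters. The CDX core TTTATG was found before Fabp6 (as CATAAA on the other strand), Slc10a2 and Nr1h4, and in 10.8% of all promoters. The nuclear receptor core AGGTCA lay before Slc51b and, on the other strand, Slc51a and Nr1h4 (14.0% of all promoters), and the GATA core AGATAA before Nr1h4 alone (9.99%). The HNF4 motif CAAAGTCCA (0.384% of all promoters) and its form CAAAGTNCA (1.19%) were in none of the 7. All motifs were searched on both strands, a match is a description of letters only, and Fgf15 was not searched.

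Across the group, 0 of 8 genes passed limma's test at an adjusted p under 0.05, where 0.528% of all genes did. Before adjustment, limma's p was under 0.05 for 3 genes higher in the mutants (Fabp6, Slc10a2 and Slc51b) and 1 lower (Cyp27a1), against 5.24% and 6.85% of all genes, or 12.1% in either direction. In the same 4 genes the groups did not overlap. Mutants lay wholly above controls in 6.93% and wholly below in 10.2% of all genes, together 17.1%. The median difference of the 8 genes was 0.44, beside -0.013 for all genes, and 6 of the 8 had a higher mean in the mutants.

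**Figure D1:**
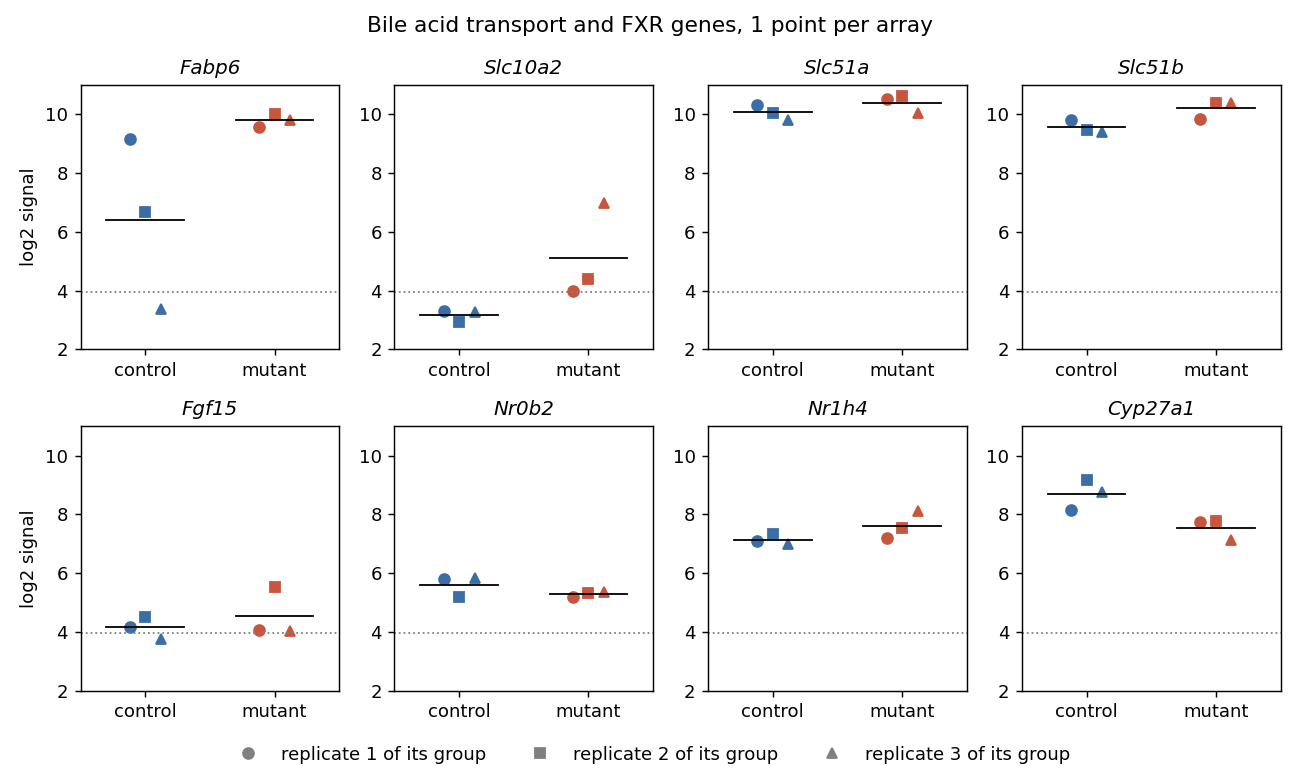
Log2 signal (vertical axis) of the 8 genes in 3 control (blue) and 3 mutant (red) arrays, with the marker shape giving the replicate number, a black line at each group mean and a dotted line at the mean of the array medians. Fabp6 spans 3.37 to 9.15 in controls and 9.57 to 10.03 in mutants, and Slc10a2 leaves the level of the controls most clearly in mutant 3.

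Among the uptake genes, Slc10a2 was near background in every control and clearly above it in 1 mutant. Slc10a2, the apical bile acid carrier (probe set 1450245_at), read 3.31, 2.93 and 3.26 in controls 1, 2 and 3 and 3.99, 4.40 and 6.98 in mutants 1, 2 and 3. The controls and mutants 1 and 2 thus lay within the range of the genes of other organs, mutant 2 only through Prm1, and mutant 3 alone stood above it. Mutant 3 was also the only mutant with Y-linked transcripts (list mean 5.62). Its Hnf4a signal was the highest of the mutants (9.82, against 8.83 and 8.83). The part of either in its Slc10a2 value was not tested. The difference was 1.96 ± 0.67 SE (95% interval 0.41 to 3.50, adjusted p = 0.289 in limma's fit), and a fold would rest on control values near background. The SD of the mutants, 1.62, ranked 16 among 18193 genes, while that of the controls was 0.21. Without mutant 3 the difference was 1.03 (adjusted p = 0.0617), and with each other array left out it lay between 1.84 and 2.52. With the mean Y-linked signal as a covariate it was 1.97 (limma's adjusted p = 0.114).

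Fabp6, the cytosolic bile acid carrier (probe set 1450682_at), was the gene of the group with the widest spread in controls. Its signal was 9.15, 6.67 and 3.37 in controls 1, 2 and 3, and 9.57, 10.03 and 9.80 in mutants 1, 2 and 3. The mutants were tightly grouped and all above the controls, but control 1 was only 0.42 below the lowest mutant, and control 3 was close to background. Control 1 was also the only control with Y-linked transcripts. The control SD of 2.90 was the 3rd largest among 18193 genes, after Cela2a, a pancreatic elastase gene high in control 3 alone, and Ubd, an interferon-inducible ubiquitin-like gene, whereas the mutant SD of 0.23 ranked 5282. The mean difference of 3.40 ± 1.19 SE (95% interval 0.67 to 6.14) did not pass limma's test (adjusted p = 0.299), and no fold is given because control 3 was near background. Its size depended on the controls: it was 4.78 without control 1 (adjusted p = 0.0873) and 1.89 without control 3 (adjusted p = 0.524). Without control 3 and mutant 2, the arrays with pancreatic and fat transcripts, it was 1.77 (adjusted p = 0.7). With the mean Y-linked signal as a covariate it was 3.42 (limma's adjusted p = 0.223).

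The exporter genes differed less. Slc51b, the beta subunit (probe set 1454854_at), read 9.82, 9.45 and 9.39 in controls and 9.84, 10.40 and 10.37 in mutants. The groups were apart by 0.026 between control 1 and mutant 1, and the difference was 0.65 ± 0.18 SE or 1.57-fold (95% interval 0.23 to 1.07, adjusted p = 0.202 in limma's fit). Slc51a, the alpha subunit (probe set 1451481_s_at), read 10.33, 10.05 and 9.81 in controls and 10.52, 10.63 and 10.03 in mutants. Here the groups overlapped, since mutant 3 lay below controls 1 and 2, and the difference of 0.33 ± 0.19 SE (95% interval -0.11 to 0.77) did not pass limma's test (adjusted p = 0.556). In mutant 3, where Slc10a2 was highest, Slc51a was thus the lowest of the mutants. With 1 array left out, the Slc51b difference stayed between 0.55 and 0.83 and that of Slc51a between 0.20 (without control 3) and 0.51 (without mutant 3), or 0.086 without control 3 and mutant 2.

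The receptor gene and the targets Nr0b2 and Fgf15 gave small differences of both signs, none past the test. Nr1h4, which encodes FXR (probe set 1419105_at), read 7.09, 7.33 and 6.99 in controls and 7.21, 7.53 and 8.10 in mutants. Mutant 3, the mutant with Y-linked transcripts, was again highest, and mutant 1 lay inside the range of the controls. The difference was 0.48 ± 0.22 SE (95% interval -0.019 to 0.97, adjusted p = 0.436 in limma's fit), or 0.23 without mutant 3 and 0.68 without mutant 1. Nr0b2, the FXR-induced corepressor SHP (probe set 1449854_at), read 5.78, 5.19 and 5.82 in controls and 5.20, 5.33 and 5.37 in mutants. These values overlapped and were little above the highest of the genes of other organs, Prm1. Mutants differed from controls by -0.30 ± 0.17 SE (95% interval -0.70 to 0.10, adjusted p = 0.563 in limma's fit). The difference was -0.50 without control 2 and -0.19 without control 3, and did not pass in either case.

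Fgf15, the hormone by which the ileum signals to the liver (probe set 1418376_at), read 4.15, 4.52 and 3.77 in controls and 4.08, 5.54 and 4.03 in mutants. All values but that of mutant 2 lay within the range of the genes of other organs, that of control 2 only through Prm1. Mutant 2 was the array that carried fat transcripts, and their part in its Fgf15 value was not tested. The difference of 0.40 ± 0.39 SE (95% interval -0.50 to 1.30, adjusted p = 0.764 in limma's fit) became -0.097 without mutant 2, and was 0.21 without control 3 and 0.64 and 0.66 without mutants 1 and 3. No change in Fgf15 or Nr0b2 was detectable with these arrays, and the intervals leave room for differences in either direction.

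Cyp27a1, the sterol 27-hydroxylase (probe set 1417590_at), was the gene of the group whose mutant values all lay below the controls. It read 8.16, 9.18 and 8.77 in controls and 7.75, 7.76 and 7.14 in mutants, and the groups were apart by 0.40. The difference was -1.16 ± 0.27 SE, which is 2.23-fold lower (95% interval -1.78 to -0.54, adjusted p = 0.135 in limma's fit). It lay between -1.43 (without control 1) and -0.92 (without control 2) with 1 array left out, and missed the threshold each time. With the mean Y-linked signal as a covariate the difference was -1.16 and passed (limma's adjusted p = 0.0152). That fit called more of all genes, 68 higher and 128 lower, against 36 and 60 without the covariate. In both groups the animal with Y-linked transcripts, control 1 and mutant 3, had the lowest Cyp27a1 of its group. The other Cyp27a1 probe set, 1457665_x_at, read between 2.03 and 2.24 on all arrays, which is background, and differed by 0.023. Cyp27a1 is also made by macrophages, whose 6 measured markers had list means of 6.98 to 7.09 in controls and 7.15 to 7.42 in mutants and moved in both directions. Of these markers 0 passed limma's test, while before adjustment p was under 0.05 for 3 that were higher in the mutants (Cd14, Csf1r and Adgre1) and 1 that was lower (Lyz2, at -0.35 ± 0.11 SE). Of all genes, 5.24% were higher and 6.85% lower by that measure. The part of macrophages in the Cyp27a1 values was not tested.

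**Figure D2:**
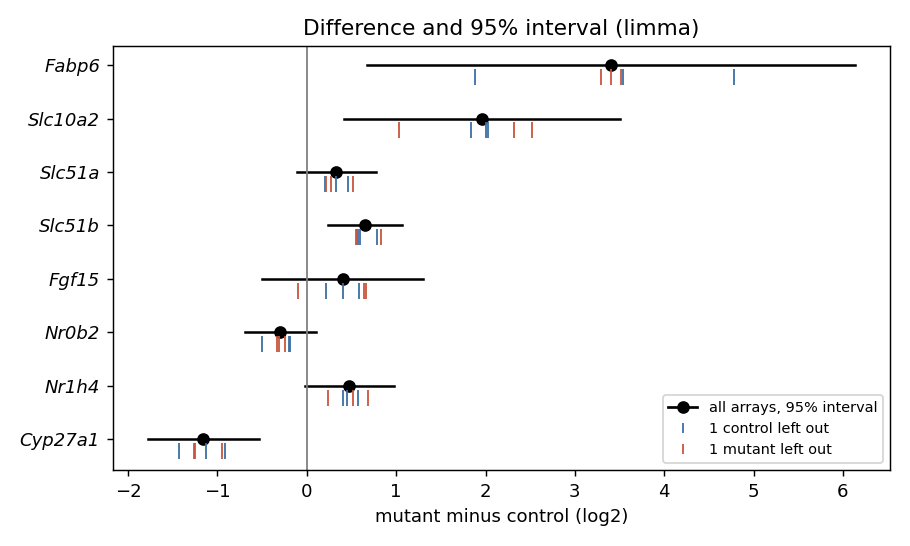
Mutant minus control difference (horizontal axis, log2) of the 8 genes, with a black point and line for the estimate and 95% interval from all 6 arrays and ticks for the estimate with 1 control (blue) or 1 mutant (red) left out. The intervals of Fabp6, Slc10a2, Slc51b and Cyp27a1 lie to 1 side of 0 before adjustment over all genes, and the Fabp6 ticks run from 1.89 to 4.78 according to which control is left out.

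Fabp6 and Slc10a2 mark the ileum, so genes with a known gradient along the gut were read beside them. Of the distal markers, the hormone genes Pyy and Gcg lay wholly higher in the mutants. Pyy read 7.95, 8.05 and 6.79 in controls and 8.60, 8.43 and 8.47 in mutants (difference 0.90 ± 0.30 SE, adjusted p = 0.279 in limma's fit), and its lowest value was in control 3, as for Fabp6. Without control 3 the Pyy difference was 0.50. Gcg differed by 0.44 ± 0.11 SE (adjusted p = 0.151 in limma's fit). Of the 9 measured distal genes 0 passed limma's test, 2 had an unadjusted p under 0.05, and the median difference was 0.08. Only 3 of the 9 lay above the array median on every array, namely Pyy, Gcg and Slc26a3. Slc26a3 was lower in the mutants, by 0.43 ± 0.26 SE, with overlapping groups (adjusted p = 0.589 in limma's fit). The remaining distal genes read between 2.30 and 4.27, near background, so the median rests mostly on such values.

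Among 11 proximal markers, limma's test was passed by 2 that fell and 0 that rose, against 0.33% and 0.198% of all genes. The median difference was -0.12. Mutants lay wholly below controls in 5 of the 11 and wholly above in 1, against 10.2% and 6.93% of all genes. In the rest of the list the groups overlapped. Gip, an incretin gene of the upper gut, fell by 1.89 ± 0.11 SE (adjusted p = 0.000998, and 0.0667 without control 3 and mutant 2). Onecut2, a transcription factor gene of the duodenum, fell by 0.93 ± 0.12 SE from values near background (adjusted p = 0.0241). The Onecut2 call was lost when any array but control 1 was left out (limma's adjusted p up to 0.102), and averaging its probe sets ended it as well (adjusted p = 0.188). Fabp1, whose product binds fatty acids in liver and upper gut, lay lower, at -1.23 ± 0.24 SE, and Gata4, a factor that represses ileal genes in jejunum, likewise, at -0.34 ± 0.10 SE (limma's adjusted p = 0.0798 and 0.22). Cck, another hormone gene of the upper gut, lay wholly higher in the mutants, by 0.90 ± 0.21 SE (adjusted p = 0.135, or 0.0431 without control 3, in limma's fit). The labels give no distance along the gut for each biopsy, and its part in the Fabp6 and Slc10a2 values was not tested.

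By the likeness rule, the 3 genes closest to Fabp6 over the 6 arrays, among 9095 genes above the median gene, were Hcls1, Itgal and Selplg, all known from leukocytes, with Pearson's r of 0.987, 0.985 and 0.981 and Spearman's rho of 0.83, 1 and 0.77. Their r for the deviations from the group means was 0.977, 0.969 and 0.968, which rests almost wholly on the 3 controls, where Fabp6 varied, and these genes were picked for a high r over the same arrays. The mean of the 4 measured B and plasma cell markers was 8.23, 7.30 and 6.54 in controls 1, 2 and 3, the same order as for Fabp6, and 7.85, 7.65 and 8.30 in mutants, where mutant 2, with the highest Fabp6, was lowest. Among them Ms4a1, the gene of CD20, read 5.96, 3.13 and 2.58 in controls and 4.47, 4.99 and 5.63 in mutants, so that controls 2 and 3 were close to background. Cd79a had the same order in controls (6.93, 5.79 and 4.88). Jchain (12.02, 12.21 and 11.52) and Mzb1 (7.99, 8.06 and 7.18) did not, since both were highest in control 2. The mean of the 6 T cell markers was 7.45, 6.34 and 6.88 in controls and 7.18, 7.78 and 7.49 in mutants, lowest in control 2 and not in control 3, where Fabp6 was lowest. None of these 10 markers passed limma's test (0 B and plasma cell and 2 T cell markers had an unadjusted p under 0.05), and the part of lymphoid tissue in the Fabp6 values was not tested.

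**Figure D3:**
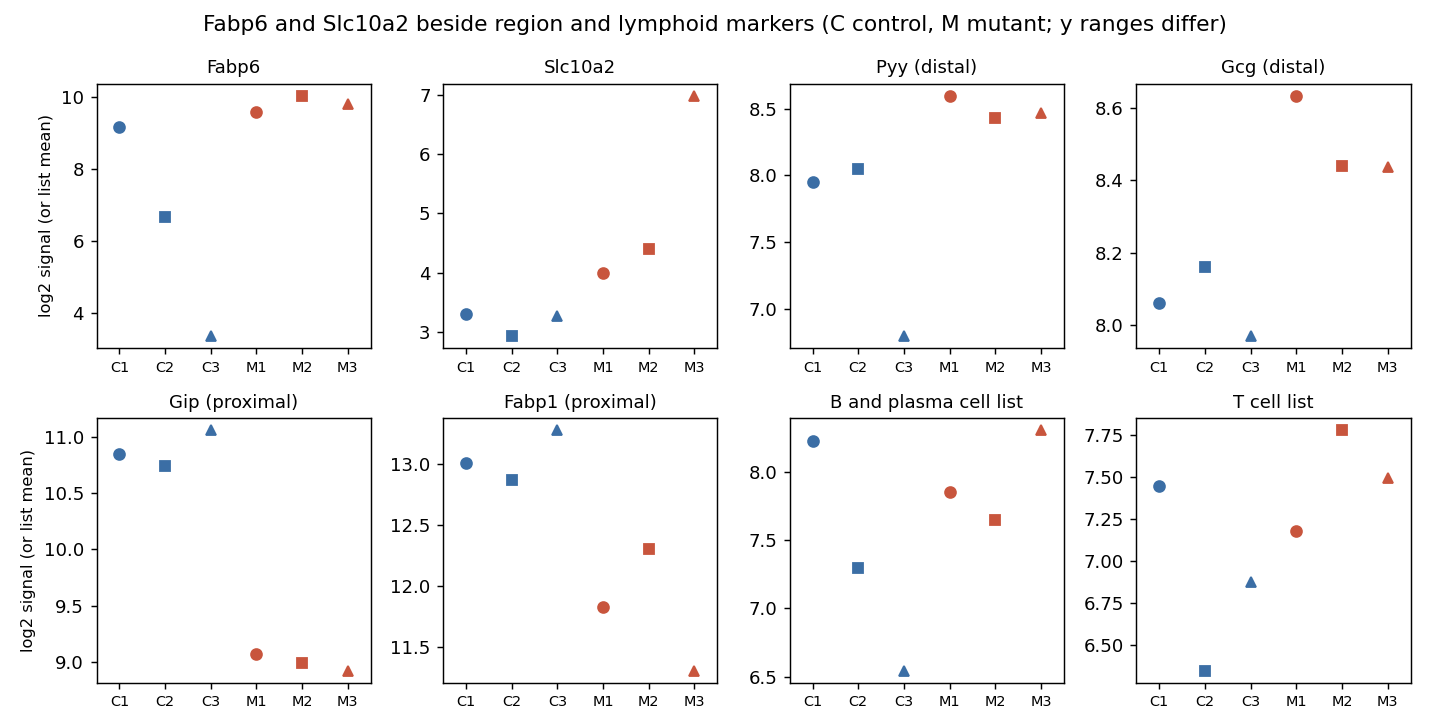
Log2 signal, or the mean log2 signal of a marker list, on each control (C, blue) and mutant (M, red) array, with a vertical range of its own in each panel. Control 3 has the lowest Fabp6, Pyy and B and plasma cell values, and Gip and Fabp1 lie lower in all mutants than in all controls. The region genes drawn are only a part of their lists. Cck, a proximal gene that was higher in the mutants, and Slc26a3, a distal gene that was lower, are not drawn.

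For the other genes of the group, the closest patterns were those of Eln, Fcer1g and Atoh1 for Slc51a (r of 0.982, 0.98 and 0.974), Plek, Jdp2 and Midn for Slc51b (0.998, 0.995 and 0.989), Acsl5, Mrpl37 and Cdca8 for Nr0b2 (0.994, 0.974 and 0.973), Kdm7a, Tmem39a and Ptgfrn for Nr1h4 (0.992, 0.991 and 0.99) and Fam222b, Prelid1 and Chdh for Cyp27a1 (0.996, 0.995 and 0.995). None of the 8 genes was among the closest of another. Slc10a2 and Fgf15 lay below the median gene and were not compared.

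Of the other bile acid transporters, Abcc2 fell and Abcc3 and Abcg2 did not pass the test. Among the 13 on the array, limma's test was passed by 1 that fell and 0 that rose, and the median difference was 0.0021. The gene that fell was Abcc2, the apical export pump MRP2 for conjugated organic anions, which read 8.42, 8.81 and 8.98 in controls and 7.80, 7.45 and 7.36 in mutants. It fell by 1.20 ± 0.18 SE (adjusted p = 0.0319), a call that ended when control 2, control 3, mutant 2 or mutant 3 was left out (limma's adjusted p up to 0.156). Its basolateral relative Abcc3, which can also export bile acids, differed by 0.028 ± 0.13 SE, the uptake carrier gene Slco2b1 by -0.64 ± 0.19 SE and Abcg2 by 0.40 ± 0.14 SE (adjusted p of 0.963, 0.22 and 0.306 in limma's fit). In the fits with 1 array left out, Abcc3 lay between -0.059 and 0.13.

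Genes of bile acid synthesis and conjugation, which act mainly in liver, had 0 of 17 members past limma's test and a median difference of 0.018. At an unadjusted limma p under 0.05, 1 was higher and 5 lower, against 5.24% and 6.85% of all genes. Cyp7a1, the rate-limiting enzyme of the classical route, read between 3.06 and 3.26 on all arrays, which is background, and differed by 0.024 ± 0.10 SE. The 4 genes with the smallest p lay lower in the mutants. Amacr, the racemase of the side chain, differed by -0.91 ± 0.17 SE, Hsd17b4, a peroxisomal enzyme of side chain oxidation, by -0.69 ± 0.14 SE, the ring-modifying Hsd3b7 by -0.62 ± 0.13 SE and the side chain oxidase gene Acox2 by -0.77 ± 0.18 SE. The mutant values of Acox2 (4.81, 4.51 and 4.61) lay within the range of the genes of other organs. In all 4 genes the mutants lay wholly below the controls, with limma's adjusted p of 0.0762, 0.0897, 0.102 and 0.144. That separation adds no support, because the 4 were picked for a small p on the same arrays. Of the 17 genes, 6 lay wholly lower and 1 wholly higher in the mutants, against 10.2% and 6.93% of all genes. With the Y-linked covariate Amacr and Hsd17b4 passed (limma's adjusted p = 0.04 and 0.0372), as Cyp27a1 did, in a fit that also called more of all genes.

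Among bile acid receptors, partners and genes of FGF15 signalling, limma's test was passed by 1 of 14 on the array, which fell, and the median difference was -0.11. Nr1i3, which encodes the receptor CAR, fell by 1.94 ± 0.26 SE (adjusted p = 0.0241); leaving out control 2, control 3, mutant 1 or mutant 3 ended that call (limma's adjusted p up to 0.0851). Rxra, the partner with which FXR binds DNA, read 8.22, 8.27 and 8.20 in controls and 8.16, 7.85 and 7.57 in mutants, wholly lower by 0.37 ± 0.15 SE (adjusted p = 0.368 in limma's fit). Vdr, the vitamin D receptor that also senses secondary bile acids, lay wholly lower by 0.50 ± 0.20 SE (adjusted p = 0.379 in limma's fit). For both, mutant 3 was the lowest array, whereas it was the highest for Nr1h4. Without mutant 3 the differences were -0.23 for Rxra and -0.24 for Vdr, and for the mean of its probe sets Rxra differed by -0.16. Gpbar1, the bile acid receptor of the cell membrane, was not analysed here.

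Among 14 regulators of ileal genes on the array, Hnf4a alone passed limma's test (median difference 0.04). Hnf4g, the paralog of Hnf4a, differed by 0.16 ± 0.16 SE and Cdx2, the intestinal homeobox gene, by 0.36 ± 0.20 SE (adjusted p of 0.756 and 0.554 in limma's fit). Both moved with single arrays: Cdx2 differed by 0.17 without control 1 and 0.55 without control 2, and Hnf4g by 0.040 without mutant 1, 0.25 without control 3, 0.31 without mutant 3 and -0.20 for the mean of its probe sets. Among 9 further genes reported to respond to intestinal FXR, 0 passed limma's test, and the median difference was 0.05. Of these, 2 were higher and 3 lower at an unadjusted limma p under 0.05, against 5.24% and 6.85% of all genes. Sdc1, a syndecan, differed by 0.87 ± 0.17 SE and the inducible nitric oxide synthase gene Nos2 by 0.85 ± 0.32 SE, whereas Cyp3a11 differed by -1.12 ± 0.27 SE and the sterol exporter gene Abcg8 by -0.81 ± 0.25 SE (limma's adjusted p of 0.0798, 0.338, 0.14 and 0.253). For Nos2 the groups overlapped. It read 5.70 in mutant 1 and between 3.82 and 5.01 on the other arrays, within the range of the genes of other organs. Abcg8 differed by -0.49 without mutant 3 and Cyp3a11 by -0.71 without control 3 and mutant 2.

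The list for sterol uptake and efflux was set beside the 8 genes, because both handle products of cholesterol in the same cells. It had 0 of 13 measured genes past limma's test and a median difference of -0.07. At an unadjusted limma p under 0.05, 0 were higher and 4 lower, against 5.24% and 6.85% of all genes. Abca1 and Npc1l1, the genes of a cholesterol exporter and of the apical cholesterol carrier, differed by -1.02 ± 0.22 SE and -0.46 ± 0.11 SE (limma's adjusted p of 0.113 and 0.154). Of the intracellular lipid binding proteins, the family to which Fabp6 belongs, 0 of 10 other measured genes passed limma's test, with 1 lower at an unadjusted p under 0.05 (Fabp1) and a median difference of -0.0020, and Fabp2, the intestinal-type gene, differed by -0.045 ± 0.09 SE. The difference between these lists and the 8 genes was not tested.

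**Figure D4:**
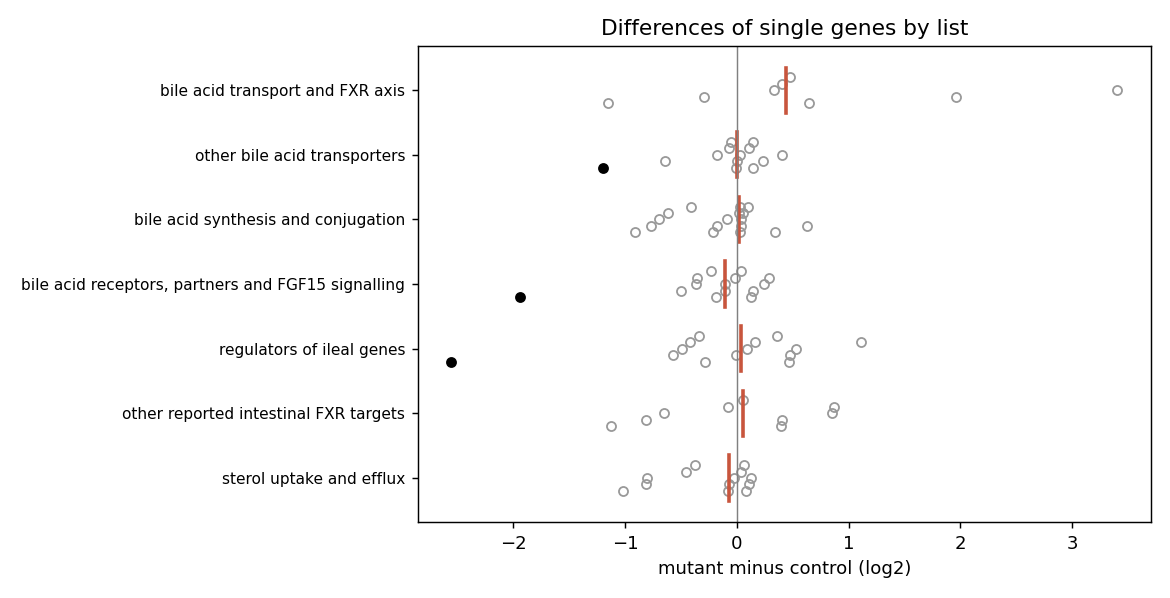
Mutant minus control difference (horizontal axis, log2) of each measured gene, by list, with filled points for genes past limma's test, open points for the others and a red bar at the list median. The 8 genes of bile acid transport and FXR have a median of 0.44 and no filled point, and the filled points are Abcc2, Nr1i3 and Hnf4a.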

How the data were processed

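The authors' deposited table holds a log2 signal for every probe set on each array; this scale was inferred from their range (1.80 to 14.5), and the sources used here do not say how they were corrected, summarised and normalised. They were used as deposited. After 64 control probe sets were left out, 34945 of 45037 had exactly 1 gene symbol in the platform annotation, and each of 18193 genes was represented by its brightest probe set. Groups of 3 were compared with limma 3.58.1 in R 4.3.3 (lmFit, eBayes, group as the only term, two-sided, Benjamini-Hochberg over all genes, called at an adjusted p under 0.05). The procedure was also run on simulated data, with independent normal noise at the moderated variances of these arrays. There 18% of changes of 0.5 log2 and 98% of changes of 1 log2 were recovered. The simulated arrays held no stray tissue or Y-linked transcripts, so these shares need not hold for the arrays measured. The number of arrays limits the precision, and an exact permutation test of 3 against 3 cannot go below p = 0.1. Promoter motifs were counted with Python 3.11.15.

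The 8 genes, the lists and the tests were chosen with earlier results of these data known. Besides Hnf4a and the 8 genes, the naming rule took up to 4 genes of a list with the smallest p, any gene called, a few receptors, transporters and regulators whatever their values, and the 3 closest patterns of each of the 8 genes that exceeded the median gene. Ubd and Cela2a were named after their values were seen. Alternatives were other normalisations, probe set rules, variance models, weights, covariates, a looser threshold and the omission of arrays. A further planned gene and its motif are not reported here.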

Additional observations from a re-analysis of the deposited data

How the results depend on the processing

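Over 135 alternative values of the 8 genes, 131 kept their direction and their side of the threshold. The exceptions were Cyp27a1, which passed with the Y-linked covariate (-1.16, the 1 gene then counted lower) and differed by 0.023 in its other probe set, and Fgf15, at -0.28 without control 3 and mutant 2 and between -0.097 and 0.66 with 1 array left out. The causes were not tested. Part of the 131 was fixed in advance. The variance models, the fit of all probe sets together, the fit without dim genes and the replicate block could not move an estimate. The mean of probe sets could do so only for Cyp27a1, the gene of the group with 2 probe sets. A gene that did not pass also counted as kept whatever the size of its difference. Fabp6 was counted so at 4.78 without control 1 and at 1.77 without control 3 and mutant 2. Trend and robust fitting gave limma's adjusted p of 0.521 for Fabp6 and 0.478 for Slc10a2. Slc10a2 and Fgf15 were not in the fit without dim genes. Other reversals were small: Abcc3 (-0.059 to 0.13 with 1 array left out), Cyp7a1 (-0.071 for the mean of its probe sets, -0.015 without control 3 and mutant 2, -0.015 to 0.082 with 1 array left out) and Hnf4g (-0.20 for the mean of its probe sets).

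The background of all genes moved more. From 36 higher and 60 lower, it went to 18 higher with all probe sets fitted together, 62 higher with array weights, 0 higher and 2 lower with no moderation, 68 and 128 with the Y-linked covariate, 1 and 3 without control 3 and mutant 2, 102 and 146 at a threshold of 0.1, and 7 to 45 higher and 15 to 51 lower with 1 array left out. With the replicate number as a block, 23 were higher and 39 lower. Deviations of same-numbered arrays correlated at 0.073, 0.068 and -0.018, and control 3 correlated best with mutant 2. Over all pairs of a control and a mutant, r lay between -0.174 and 0.125. These values gave no sign that the numbers pair the animals, but with 3 arrays per group they cannot exclude it.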
